A study of Mus musculus with 8 samples.

Results

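The transcription factor p53 sets off cell death by switching on a set of genes that act at the mitochondrion, at the plasma membrane and in the nucleus. The 10 genes described here are such targets, chosen by name from that pathway with earlier results of these data known: Bax, Bbc3, Pmaip1, Perp, Ei24, Aen, Trp53inp1, Zmat3, Fas and Eda2r. They were 10 of the 55401 genes counted in every library, and all 10 were among the 17532 genes with enough reads to be tested.

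RNA-seq was performed on 8 libraries of mouse embryonic stem cells (ESCs), the cultured cells of the early embryo. The libraries were 2 labelled Control, 3 labelled Zzz3_auxin and 3 labelled Yeats2_auxin. ZZZ3 and YEATS2 are core subunits of ATAC, a coactivator complex that acetylates histones. In the 2 auxin groups the protein was fused to an auxin-inducible degron (AID), which the rice F-box protein Tir1 targets for degradation once auxin is added. Auxin was applied at 500 µM for 24 h. All cells grew on gelatin in serum medium with leukaemia inhibitory factor, 3 µM CHIR99021 and 1 µM PD0325901, with 400 µg/ml G418 to select for Tir1. For the controls, neither the cell line nor any treatment is stated in the labels, so the degron line, auxin itself and loss of the subunit cannot be told apart, and they give no number of clones. They call the samples replicates without saying that the cultures were separate, so the p-values measure the spread between these libraries, which may be technical.

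Depth was 14315120 to 27884704 reads assigned to genes per library, with Zzz3_auxin replicate 3 the lowest. The Zzz3 mRNA was at 186 and 182 counts scaled to library depth (CPM) in the controls and at 77.5, 96.9 and 112 CPM in Zzz3_auxin, and the Yeats2 mRNA was at 90.9 and 95.8 CPM in the controls and at 77.3, 103 and 43.7 CPM in Yeats2_auxin; the degron acts on the protein, so neither mRNA checks the depletion. The 8 ESC markers summed to 4548 to 5341 CPM and the 5 fibroblast markers to 1.27 to 2.15 CPM. The 4 markers of primed or neuroectoderm cells summed to 14.4 to 15.1 CPM in the controls, 10.4 to 16.4 CPM in Zzz3_auxin and 8.74 to 8.90 CPM in Yeats2_auxin. The 3 mesoderm markers summed to 15.0 to 17.8 CPM in the controls, 12.8 to 21.9 CPM in Zzz3_auxin and 11.5 to 14.5 CPM in Yeats2_auxin, and the 4 endoderm markers to 0.806 to 1.54 CPM over all libraries. Among the ESC markers, Pou5f1 was at 275 and 420 CPM in the controls and at 460 to 592 CPM in the auxin libraries, above both controls (log2 fold change 0.62, adjusted p = 0.106 and 0.55, adjusted p = 0.213 by edgeR), and DESeq2 called it higher in Zzz3_auxin. Nanog went the other way, at 772 and 736 CPM in the controls and 561 to 684 CPM in the auxin libraries. The part of these markers in the results below was not tested. In bulk RNA, a different share of cells with a transcript cannot be told apart from a different amount per cell. Libraries also differed by base composition: the median log2 level of genes over 55.0% GC, minus that of genes under 43.3% GC, each relative to the mean of the 8 libraries, was -0.63 in Control replicate 1, 0.47 in Zzz3_auxin replicate 3 and -0.08 to 0.16 in the other 6. Bax at 63.5% GC and Bbc3 at 65.2% GC are the GC-rich members, while the other 8 ranged from 38.8% GC in Trp53inp1 to 51.6% GC in Aen.

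p53 binds DNA as a tetramer at a response element made of a pair of half-sites, each a short palindrome around a C and a G. In unstressed cells its level is held down by MDM2, and stress releases it. BAX perforates the outer mitochondrial membrane. BBC3 (PUMA) and PMAIP1 (NOXA) block the pro-survival BCL2 proteins that restrain it, and FAS starts a separate route to caspases from the cell surface. ESCs are known to enter apoptosis readily after DNA damage.

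The RefSeq promoter table used here, on GRCm38.p6, had windows for 6 of the 10 genes, 9 windows in all, each running from 250 bases before to 50 bases after a transcript start. Perp, Zmat3, Trp53inp1 and Pmaip1 were not searched. The windows were searched for the p53 half-site, 10 bases read on both strands, the motif being its own reverse complement. A half-site without mismatch was in windows of Bax, Aen and Ei24, against 8.36% of all 32841 mouse windows. A pair of half-sites with at most 3 mismatches over both, at most 13 bases apart and with the central C and G of each kept, was in windows of Bax, Bbc3 and Aen, against 15.6% of all windows. Bbc3 had 3 windows and Aen 2, so both had more chances of a match. The Fas and Eda2r windows held neither. The matches are shown because the genes that carry them differ in what they did below. Capitals mark the half-sites.
Bax, chr7:45467075-45467104, minus strand, 2 mismatches, 1 base apart: atcccAGGCAAGCTTtGAACTTGCGGcaat
Bbc3, chr7:16309481-16309510, plus strand, 3 mismatches, adjacent: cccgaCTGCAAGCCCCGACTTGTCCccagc
Aen, chr7:78895932-78895961, plus strand, 3 mismatches, adjacent: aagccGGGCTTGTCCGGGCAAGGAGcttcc
Ei24, chr9:36797330-36797349, minus strand, a single half-site: ggcccGGGCATGCCCagtgt
In Bax the first base of the element lay 201 bases before the transcript start, and in Ei24 the half-site began 10 bases before it. A second Bbc3 window held another pair with 3 mismatches, 2 bases apart. A match is a description of the letters and not evidence of binding.

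The first question was how these genes stood after loss of either ATAC subunit. In both auxin groups most of them had more transcripts than in the controls. The median log2 fold change (FC) over the 10 genes was 0.50 in Zzz3_auxin and 0.57 in Yeats2_auxin, where the medians over all tested genes were 0.01 and -0.01. Every Zzz3_auxin library lay above both controls for 7 of the 10 genes, against 16.8% of all tested genes, and every Yeats2_auxin library for 8 of 10, against 19.3%. The 7 genes that met this in both groups were Bax, Bbc3, Perp, Aen, Trp53inp1, Fas and Eda2r, and Pmaip1 met it in Yeats2_auxin. The 10 genes and the lists below were chosen with earlier results of these data known. Their counts beside the shares of all genes are therefore a description and not independent support.

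None of the 10 passed an adjusted p of 0.05 in edgeR's quasi-likelihood test in either comparison, where 0.753% and 0.445% of all tested genes did (0.496% and 0.331% as higher). At an unadjusted p of 0.05, 7 of the 10 were higher in Zzz3_auxin and 8 in Yeats2_auxin, against 11.6% and 7.65% of all tested genes. DESeq2, the tool of the study, called 4 higher in Zzz3_auxin (Bbc3, Perp, Aen and Eda2r) and 5 in Yeats2_auxin (these and Trp53inp1), where it called 4.83% and 1.99% of all genes with an adjusted p as higher. The individual changes given next are therefore values and not calls unless a call is stated.

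**Figure D1:**
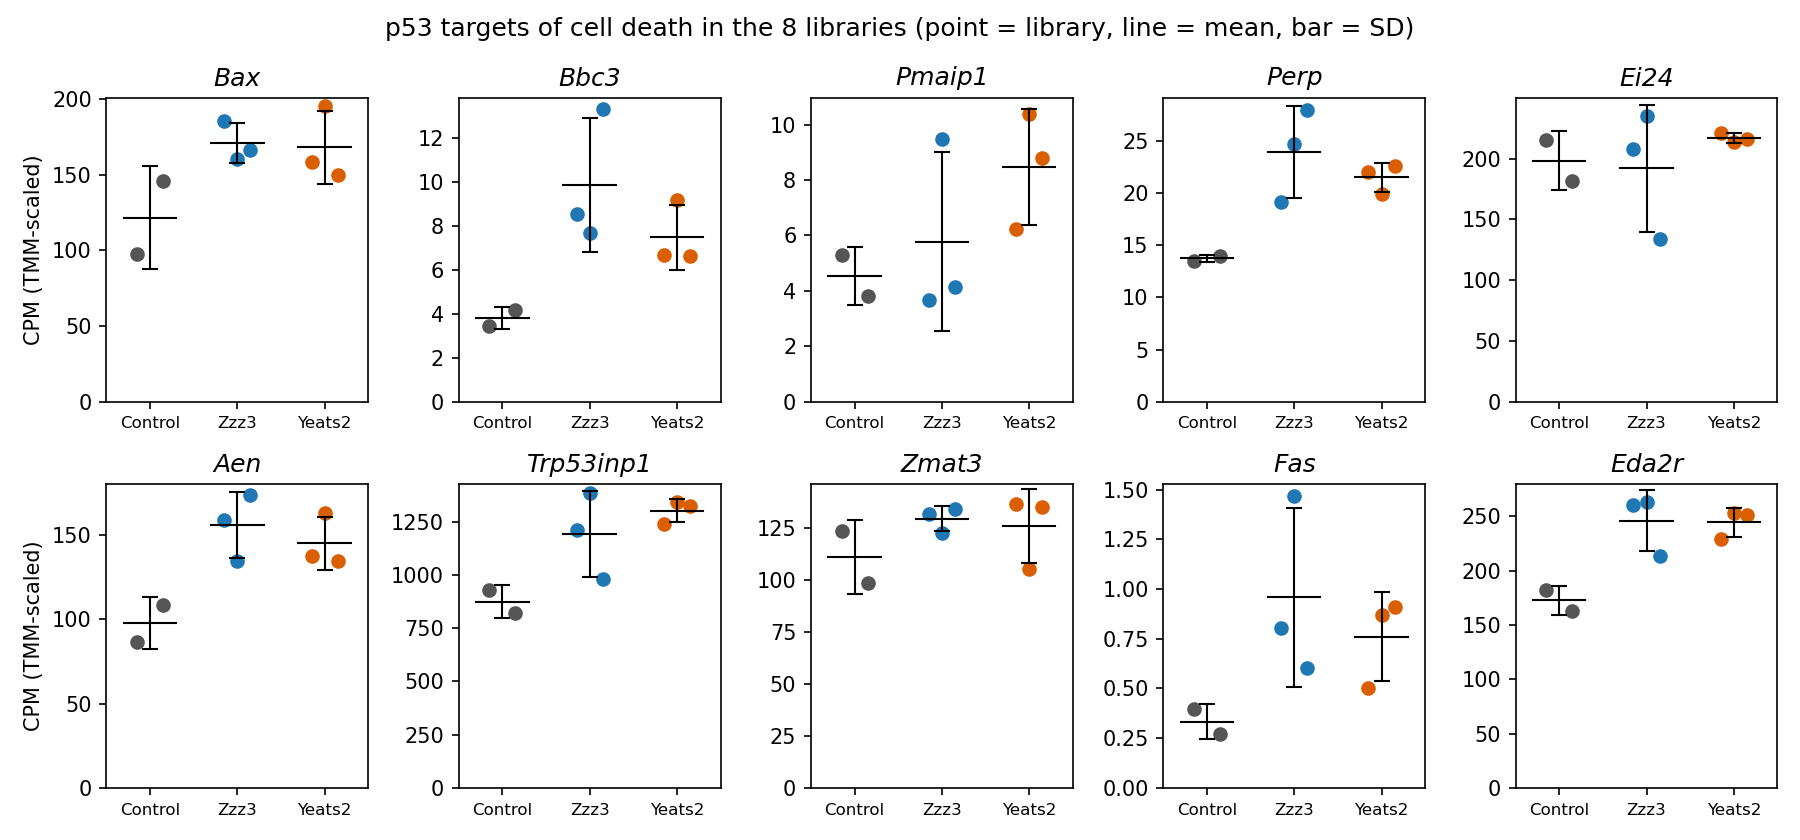
CPM (vertical axes, starting at 0, a separate scale per gene) of the 10 p53 targets of cell death in 2 Control, 3 Zzz3_auxin and 3 Yeats2_auxin libraries; points are libraries, horizontal lines means and bars SD. The 6 auxin libraries sit above both controls for 7 of the 10 genes, while Ei24 and Zmat3 overlap the controls in both auxin groups and Pmaip1 in Zzz3_auxin only.

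Among the mitochondrial genes, Bax was read at 97.3 and 146 CPM in the controls, at 186, 160 and 166 CPM in Zzz3_auxin and at 159, 195 and 150 CPM in Yeats2_auxin. All 6 auxin libraries were higher than both controls, but the nearest, at 150 CPM, was close to the higher control. EdgeR gave a log2 FC of 0.49 ± 0.17 (SE, adjusted p = 0.145) in Zzz3_auxin and 0.47 ± 0.17 (adjusted p = 0.251) in Yeats2_auxin. It rested on the controls: without Control replicate 1 it was 0.23 and 0.21, and without Control replicate 2 it was 0.81 and 0.79. With each library corrected for GC content and exon length it was 0.06 ± 0.17 and 0.23 ± 0.17. In Control replicate 1 the fitted trend for genes of the GC content and length of Bax was -0.54 on the log2 scale.

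Bbc3 was read at 3.45 and 4.17 CPM in the controls, at 8.56, 7.66 and 13.3 CPM in Zzz3_auxin and at 6.65, 9.19 and 6.61 CPM in Yeats2_auxin, from 70 to 254 reads per library. The groups did not overlap, and the highest value was in Zzz3_auxin replicate 3, where the trend for genes of its composition was 0.68. Its log2 FC of 1.35 ± 0.28 (adjusted p = 0.0505) in Zzz3_auxin was just short of the threshold, and in Yeats2_auxin it was 0.97 ± 0.28 (adjusted p = 0.155). After the GC and length correction both values were lower, at 0.79 ± 0.18 (adjusted p = 0.065) and 0.68 ± 0.18 (adjusted p = 0.127). DESeq2 called it in both comparisons (adjusted p = 0.000444 and 0.0319).

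Pmaip1 varied most within a group. It was read at 5.28 and 3.81 CPM in the controls, at 3.68, 9.49 and 4.15 CPM in Zzz3_auxin and at 6.23, 10.4 and 8.78 CPM in Yeats2_auxin. In Zzz3_auxin replicate 2 alone stood above the controls, and in Yeats2_auxin all 3 did. By edgeR the log2 FC was 0.36 ± 0.39 (adjusted p = 0.625) in Zzz3_auxin, where it became -0.21 without replicate 2 and 0.15 without Control replicate 2, and 0.90 ± 0.39 (adjusted p = 0.316) in Yeats2_auxin.

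Ei24, which encodes an endoplasmic reticulum protein first found as a p53-induced gene, was the member with the smallest difference. It was read at 215 and 181 CPM in the controls, at 208, 235 and 134 CPM in Zzz3_auxin and at 221, 214 and 216 CPM in Yeats2_auxin. The low value belonged to Zzz3_auxin replicate 3, and all groups overlapped. The change was a log2 FC of -0.05 ± 0.19 (adjusted p = 0.919) in Zzz3_auxin and 0.13 ± 0.19 (adjusted p = 0.788) in Yeats2_auxin, and the former was 0.17 without that library. Without Control replicate 1 and without Control replicate 2 the latter was 0.26 and 0.01. A half-site without mismatch thus stood in the windows of Ei24, Bax and Aen alike. An antisense gene, Gm26787, overlaps 324 bases of Ei24 exons and held 7 reads over the 8 libraries.

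Perp encodes a membrane protein of the plasma membrane and of desmosomes that is required for p53-driven death in some cell types. It was read at 13.5 and 13.97 CPM in the controls, at 19.2, 24.7 and 27.98 CPM in Zzz3_auxin and at 22.01, 19.9 and 22.6 CPM in Yeats2_auxin. The controls lay close together and every auxin library was well above them. Its log2 FC was 0.80 ± 0.18 (adjusted p = 0.0593) in Zzz3_auxin and 0.65 ± 0.17 (adjusted p = 0.140) in Yeats2_auxin. Its composition lies near the middle of all genes, and the corrected values were 0.85 ± 0.16, which was called (adjusted p = 0.0382), and 0.68 ± 0.16 (adjusted p = 0.102).

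Aen encodes a nuclease that degrades DNA in dying cells. It was read at 86.6 and 108 CPM in the controls, at 159, 135 and 174 CPM in Zzz3_auxin and at 137, 163 and 134 CPM in Yeats2_auxin. The groups did not overlap. By edgeR the log2 FC came to 0.67 ± 0.15 (adjusted p = 0.065) in Zzz3_auxin and 0.57 ± 0.15 (adjusted p = 0.136) in Yeats2_auxin, and the correction left 0.59 ± 0.14 and 0.50 ± 0.13.

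Trp53inp1, whose product promotes the activity of p53 under stress and also acts in autophagy, was the most abundant member. It was read at 931 and 820 CPM in the controls, at 1212, 1387 and 982 CPM in Zzz3_auxin and at 1240, 1344 and 1325 CPM in Yeats2_auxin. Zzz3_auxin replicate 3 was the lowest auxin library and stood just above the higher control. Its log2 FC came to 0.45 ± 0.15 (adjusted p = 0.123) in Zzz3_auxin and 0.57 ± 0.15 (adjusted p = 0.127) in Yeats2_auxin. It is the member with the lowest GC content, and corrected for GC and length it was called in both comparisons, at 0.66 ± 0.12 (adjusted p = 0.0352) and 0.77 ± 0.12 (adjusted p = 0.0238).

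Zmat3, an RNA-binding zinc finger protein that acts on splicing and mRNA stability downstream of p53, was read at 124 and 98.2 CPM in the controls. It was at 132, 122 and 134 CPM in Zzz3_auxin and at 137, 105 and 135 CPM in Yeats2_auxin. Both auxin groups overlapped the controls. On the log2 scale the FC was 0.22 ± 0.15 (adjusted p = 0.401) and 0.18 ± 0.15 (adjusted p = 0.593), and the correction moved neither by more than 0.02. Both values rested on the controls, at 0.39 and 0.36 without Control replicate 1 and 0.07 and 0.03 without Control replicate 2.

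The 2 receptors differed in abundance. Fas, the death receptor of the TNF receptor family, was near the limit of detection, with 8 and 6 reads in the controls, 21, 40 and 9 in Zzz3_auxin and 13, 24 and 23 in Yeats2_auxin. Scaled by depth, every auxin library, at 0.503 to 1.47 CPM, was above the controls at 0.395 and 0.272 CPM. Its log2 FC was the largest of the 10 and the least precise, at 1.56 ± 0.52 (adjusted p = 0.127) in Zzz3_auxin and 1.19 ± 0.53 (adjusted p = 0.327) in Yeats2_auxin. DESeq2 gave it no adjusted p in either comparison.

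Eda2r encodes a TNF receptor family member that binds an isoform of ectodysplasin A. It was read at 182 and 163 CPM in the controls, at 260, 263 and 213 CPM in Zzz3_auxin and at 229, 253 and 251 CPM in Yeats2_auxin. The groups did not overlap and the SE was the smallest of the 10. As log2 FC the difference was 0.51 ± 0.13 (adjusted p = 0.0762) in Zzz3_auxin and 0.50 ± 0.13 (adjusted p = 0.124) in Yeats2_auxin. Like Trp53inp1 it is poor in GC, and the corrected values of 0.71 ± 0.10 (adjusted p = 0.0179) and 0.67 ± 0.10 (adjusted p = 0.0218) were called.

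**Figure D2:**
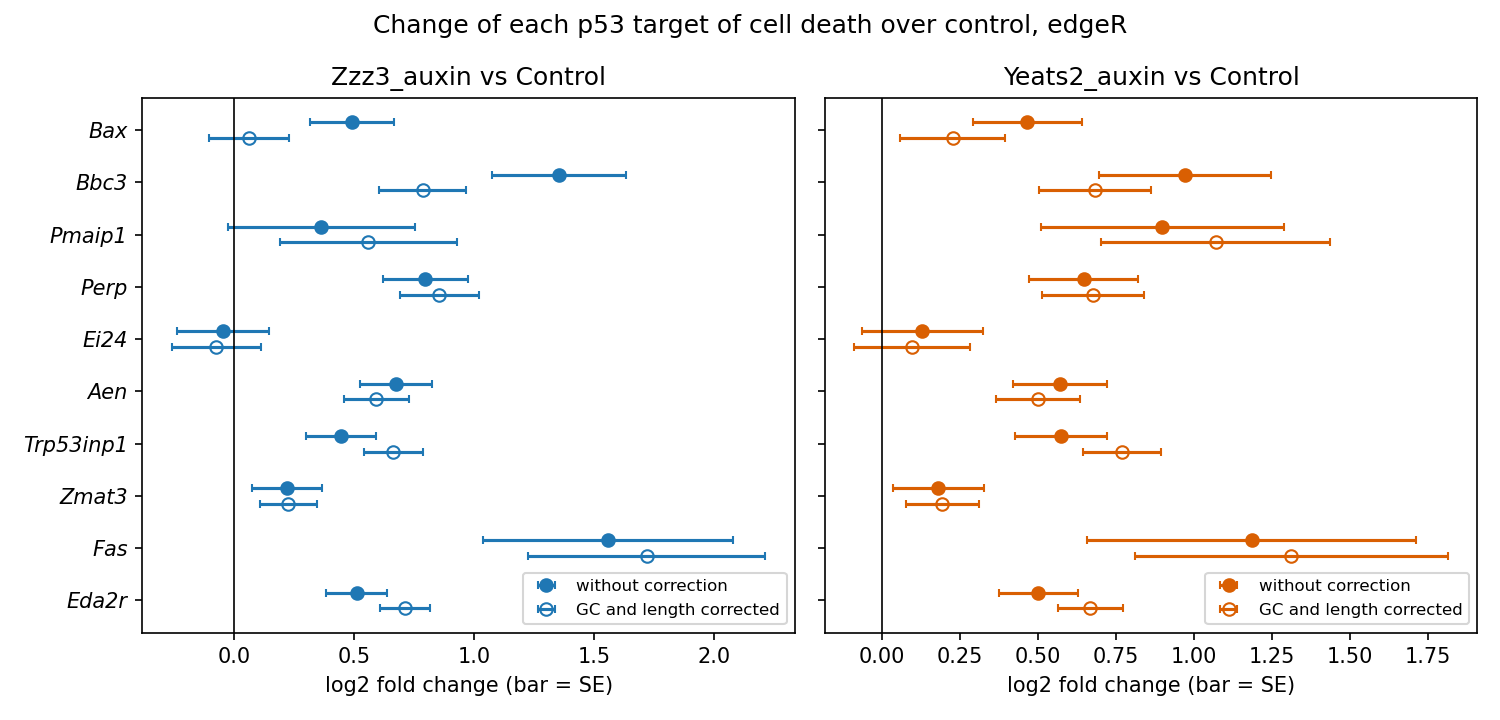
Log2 FC over Control (horizontal axes, bars SE) of the 10 genes in Zzz3_auxin (left) and Yeats2_auxin (right), by edgeR without correction (filled) and with each library corrected for GC content and exon length (open). The correction took Bax to 0.06 and 0.23 and Bbc3 to 0.79 and 0.68, and raised Trp53inp1 to 0.66 and 0.77 and Eda2r to 0.71 and 0.67.

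The GC and length correction changed which members passed. It called 3 members in Zzz3_auxin (Perp, Trp53inp1 and Eda2r) and 2 in Yeats2_auxin (Trp53inp1 and Eda2r), where it called 0.587% and 0.491% of all tested genes as higher, and the median over the 10 was 0.63 and 0.67. Leaving out a single library also changed calls. Without Zzz3_auxin replicate 3, the shallowest, Bbc3, Trp53inp1 and Eda2r were called in Zzz3_auxin and Trp53inp1 and Eda2r in Yeats2_auxin, where 1.23% and 0.844% of all tested genes were called higher. Without Zzz3_auxin replicate 2, Bbc3 and Aen were called in Zzz3_auxin and no member in Yeats2_auxin, against 2.83% and 0.311% as higher. With a single control left no member was called, but then edgeR called almost no gene: 0% as higher in both comparisons without Control replicate 1, and 0% in Zzz3_auxin and 0.00538% in Yeats2_auxin without Control replicate 2.

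The second question was whether the 2 depletions differed. Between Yeats2_auxin and Zzz3_auxin, edgeR called 0 of the 10 genes and 0% of all tested genes. At an unadjusted p of 0.05, 0 of the 10 were higher or lower, against 1095 of 17532 tested genes in either direction. As higher it was 2.44% of all tested genes. DESeq2 called 0 of the 10, and 0.00303% of all genes as higher. The largest differences were in Pmaip1, with a log2 FC of 0.54 ± 0.33 (adjusted p = 0.779), in Bbc3, with -0.38 ± 0.23 (adjusted p = 0.779), and in Fas, with -0.37 ± 0.39 (adjusted p = 0.850). Single libraries moved these values: Pmaip1 was at 0.28 without Zzz3_auxin replicate 1, 0.36 without Zzz3_auxin replicate 3 or Yeats2_auxin replicate 2 and 1.12 without Zzz3_auxin replicate 2. Bbc3 was at -0.11 without Zzz3_auxin replicate 3, and Fas at 0.08 without Zzz3_auxin replicate 2 and -0.15 without Yeats2_auxin replicate 1. For Eda2r and Bax the differences were -0.01 ± 0.11 and -0.02 ± 0.15. No member had every Yeats2_auxin library above every Zzz3_auxin library, against 5.25% of all tested genes. These intervals do not show that the depletions act alike on the noisier genes.

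With both auxin groups set against the controls, edgeR again called 0 of the 10, where 1.26% of all tested genes passed (0.736% as higher), and 7 had an unadjusted p under 0.05, against 10.6% of all tested genes as higher. Bbc3 (log2 FC 1.16 ± 0.26, adjusted p = 0.0531), Perp (0.72 ± 0.16, adjusted p = 0.0545), Aen (0.62 ± 0.14, adjusted p = 0.0545) and Eda2r (0.51 ± 0.12, adjusted p = 0.0557) lay just outside the threshold. DESeq2 called these 4 and Trp53inp1, and 4.14% of all genes as higher. The GC and length correction called Perp, Trp53inp1 and Eda2r, and 0.816% of all tested genes as higher. For 7 of the 10 all 6 auxin libraries were above both controls, against 10.5% of all tested genes.

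**Figure D3:**
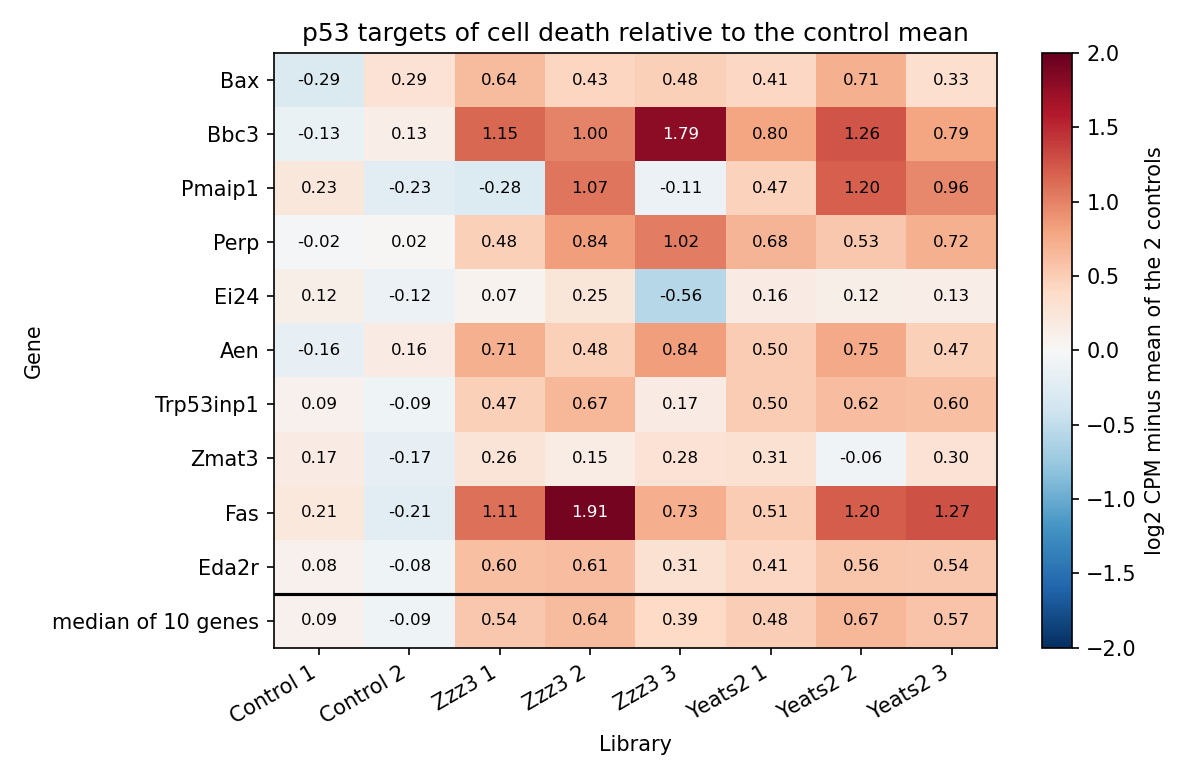
Log2 CPM of each gene minus the mean of the 2 controls (colour and printed value) in each of the 8 libraries (horizontal axis), with the median over the 10 genes in the last row. The median was 0.39 to 0.67 in the 6 auxin libraries and 0.09 and -0.09 in the controls, with the lowest auxin median in Zzz3_auxin replicate 3, where Ei24 stood at -0.56 and Bbc3 at 1.79.

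The libraries could be read one by one in the same way. The median over the 10 genes, as log2 CPM over the control mean, was 0.54, 0.64 and 0.39 in Zzz3_auxin and 0.48, 0.67 and 0.57 in Yeats2_auxin. Zzz3_auxin replicate 3 combined the highest Bbc3 and Perp with the lowest Ei24, Trp53inp1 and Eda2r of the auxin libraries. Levels of different genes were compared per kilobase of exon. In the controls the order of CPM per kb was Trp53inp1 (135 ± 12.1, SD, n = 2), Bax (77.1 ± 21.6), Ei24 (40.7 ± 4.94), Eda2r (29.3 ± 2.31), Aen (16.8 ± 2.66), Zmat3 (9.70 ± 1.57), Perp (7.04 ± 0.163), Bbc3 (1.80 ± 0.239), Pmaip1 (1.66 ± 0.380) and Fas (0.162 ± 0.0420). The neighbours Bbc3 and Pmaip1 did not differ beyond their spread there. In Zzz3_auxin and Yeats2_auxin, Eda2r at 41.7 ± 4.75 and 41.5 ± 2.28 CPM per kb (SD, n = 3) came up to Ei24 at 39.4 ± 10.7 and 44.6 ± 0.797, and Perp at 12.3 ± 2.28 and 11.03 ± 0.723 to Zmat3 at 11.3 ± 0.534 and 11.00 ± 1.54. Of the 2 receptors among the 10 genes, Eda2r was thus an abundant transcript and Fas a rare one in these cells.

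**Figure D4:**
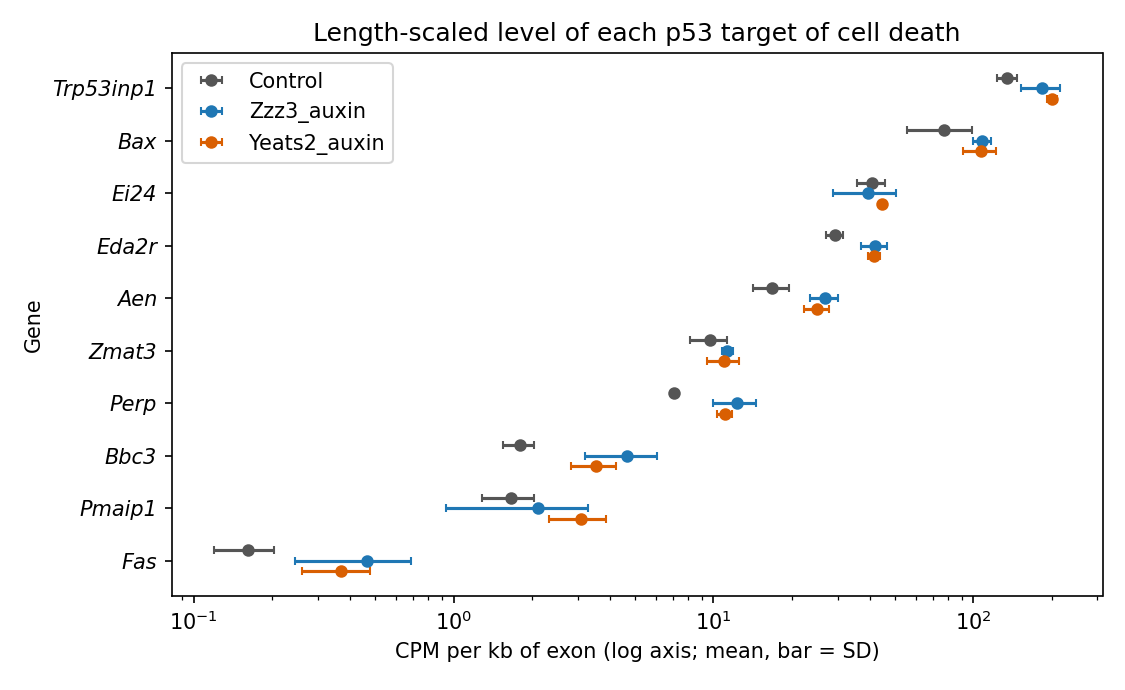
CPM per kb of exon (horizontal log axis, mean with SD bars) of the 10 genes in Control (n = 2), Zzz3_auxin (n = 3) and Yeats2_auxin (n = 3). Trp53inp1 stood highest at 135 to 201 CPM per kb and Fas lowest at 0.162 to 0.465 CPM per kb.

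The profile over the 8 libraries was compared between genes by the root mean square difference of log2 CPM, each gene centred on its own mean, from the median profile of the 10. Eda2r at 0.07 and Trp53inp1 at 0.11 were the members nearest to it, and Pmaip1 at 0.46 was the farthest. Of 9861 protein-coding genes outside the set with at least 5 CPM, the nearest were Btg2, Gpx3, Wwc1, Polk and Cars, at 0.05 to 0.08, where the median gene was at 0.33. Btg2, a brake on proliferation, and Polk, a DNA polymerase that copies past lesions, are p53 targets in their own right. Their log2 FC in Zzz3_auxin and Yeats2_auxin was 0.68 and 0.70 for Btg2 and 0.48 and 0.48 for Polk. Gpx3 was at 0.60 and 0.68, Wwc1 at 0.57 and 0.60 and Cars at 0.51 and 0.54. Of the 5, only Btg2 passed in edgeR in these comparisons (adjusted p = 0.0402 and 0.0419). The 5 were picked for this profile, so their rise over control follows from the choice.

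Other genes of the same pathway were examined as lists. Of 10 further p53 targets of cell death, edgeR called 1 higher in both comparisons, Pidd1, whose product activates caspase 2. It was at 18.5 and 20.6 CPM in the controls and at 30.4 to 37.8 CPM in the auxin libraries, a log2 FC of 0.81 (adjusted p = 0.0368) in Zzz3_auxin and 0.78 (adjusted p = 0.0419) in Yeats2_auxin. The call was lost after the GC and length correction in both. The other 9 did not pass in edgeR, and the list had medians of 0.39 and 0.47. Like Pidd1, the genes Apaf1, Tnfrsf10b, Siva1 and Steap3 had every auxin library above both controls, as did 10.5% of all tested genes. Bid, Casp6, Trp53i11, Trp53i13 and Dram1 did not. A rise by this measure was thus not particular to the 10 members. Of the 9 genes of the list that had an adjusted p in DESeq2, 3 were called higher in Zzz3_auxin (Pidd1, Tnfrsf10b and Siva1) and 1 in Yeats2_auxin (Pidd1), against the 4.83% and 1.99% of all genes given above.

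Of the 15 p53 targets of arrest and stress survival, edgeR called 4 higher in Zzz3_auxin (Btg2, Plk2, Sesn2 and Phlda3), 3 in Yeats2_auxin (Btg2, Plk2 and Phlda3) and 0 lower, where 0.496% and 0.331% of all tested genes were called higher. DESeq2 called 6 higher in Zzz3_auxin (these 4, Ccng1 and Polk) and 5 in Yeats2_auxin (the 4 and Polk), against 4.83% and 1.99% of all genes. Plk2, a stress-induced polo-like kinase, had the largest change of the 4, from 83.7 and 84.55 CPM in the controls to 174 to 219 CPM in the auxin libraries (log2 FC 1.28, adjusted p = 0.00465 and 1.21, adjusted p = 0.00799). Sesn2, a stress-induced inhibitor of mTORC1, was at 1.01 (adjusted p = 0.0359) and 0.81 (adjusted p = 0.0728), and Phlda3, an inhibitor of AKT, at 0.78 (adjusted p = 0.0402) and 0.80 (adjusted p = 0.0419), the latter calls lost after the correction. Cdkn1a, not called higher by either tool, was at 78.2 and 53.3 CPM in the controls and 33.3 to 82.7 CPM in the auxin libraries. The list medians were 0.31 and 0.28, below those of the 10 cell death targets, though this difference was not tested. The 10 of p53 and its controllers, of which 9 were tested, are set against the same shares of all genes. They held 2 that rose in both comparisons by edgeR and by DESeq2. These were Mdm2, the ubiquitin ligase that degrades p53 and is itself a p53 target (0.71, adjusted p = 0.0375 and 0.69, adjusted p = 0.0428), and the p53 relative Trp73 (1.195, adjusted p = 0.0187 and 1.28, adjusted p = 0.0204). Trp53 itself was at 171 and 159 CPM in the controls and at 96.3 to 182 CPM in the auxin libraries, with a log2 FC of -0.34 and -0.19, neither of which passed. Every auxin library lay below both controls for Mdm4 (432 to 495 CPM, controls 627 and 508) and Atm (190 to 246 CPM, controls 281 and 259). For Ppm1d every auxin library lay above both controls (53.8 to 62.4 CPM, controls 51.9 and 41.6). EdgeR did not call Mdm4, Atm or Ppm1d. With a single control left the calls of all 7 genes were lost, in fits where edgeR called 0 or 1 of all tested genes as higher. Over the 8 fits that each left out a library, Plk2 was called in 6 and 5, Trp73 in 4 and 3, and the others, where called at all with every library in, in 2 or 3; each log2 FC stayed above 0.

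**Figure D5:**
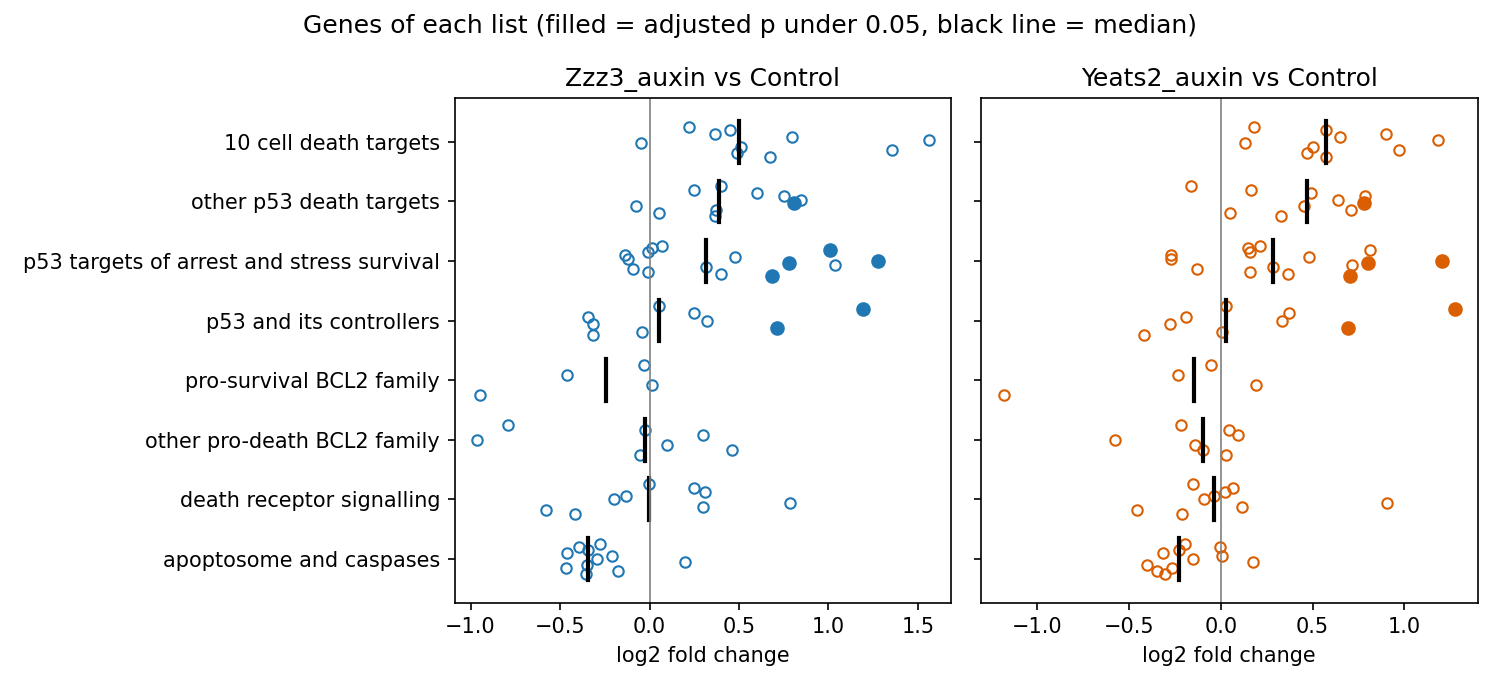
Log2 FC over Control (horizontal axes) of every tested gene in 8 lists of the p53 and cell death pathways, in Zzz3_auxin (left) and Yeats2_auxin (right); filled points passed an adjusted p of 0.05 and black lines are list medians. The 10 cell death targets have medians of 0.50 and 0.57 with no filled point, while the apoptosome and caspase list has medians of -0.34 and -0.23.

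Of the partners through which these targets act, edgeR called 0 and DESeq2 only Birc5, in Zzz3_auxin. The apoptosome and caspase list, given last, nevertheless lay mostly below 0. Of the 8 pro-survival BCL2 genes 4 were tested, and 0 were called by edgeR or DESeq2 in either comparison, with 1 lower at an unadjusted p of 0.05 in each, against 10.1% and 6.98% of all tested genes. The smallest p-values belonged to Bcl2l2 (-0.46 and -0.24) and Bcl2 (-0.95 and -1.18, from 5 to 22 reads, the former -0.65 without Zzz3_auxin replicate 2 and -1.55 without Zzz3_auxin replicate 1), while Mcl1, the partner of NOXA, was at -0.03 and -0.05. Of the 7 other pro-death BCL2 genes, edgeR and DESeq2 called 0, and 0 had an unadjusted p under 0.05. Bik (-0.96 and -0.58, from 4 to 18 reads) and Bmf (0.30 and 0.09) came closest. Bik in Yeats2_auxin was at -0.25 without Control replicate 2, -0.31 without Yeats2_auxin replicate 1 and -0.86 without Yeats2_auxin replicate 2, and in Zzz3_auxin at -0.64 without Control replicate 2.

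Of 11 genes of death receptor signalling 9 were tested and 0 called by either tool. At an unadjusted p of 0.05, 1 was lower in Zzz3_auxin and 0 in Yeats2_auxin, against 10.1% and 6.98% of all tested genes. Cflar, the inhibitor of caspase 8 at the receptor, was at -0.58 and -0.46, and Edaradd, the adaptor of the related ectodysplasin receptor EDAR, at 0.79 and 0.91 from 8 to 40 reads. Edaradd rested on single libraries, at 1.43 and 1.55 without Control replicate 1, 0.33 and 0.45 without Control replicate 2, and 0.34 in Zzz3_auxin without Zzz3_auxin replicate 2. Cflar in Zzz3_auxin was at -0.36 without Zzz3_auxin replicate 1. The ligand Fasl had 0 to 6 reads per library and Edar 0 to 3. The apoptosome and caspase list had medians of -0.34 and -0.23, with 10 and 9 of its 11 genes below 0, against 48.9% and 51.1% of all tested genes. EdgeR called 0 of them in both comparisons, with 7 and 3 lower at an unadjusted p of 0.05, against 10.1% and 6.98% of all tested genes. DESeq2 called 1 lower in Zzz3_auxin, Birc5, and 0 in Yeats2_auxin, where it called 3.34% and 1.16% of all genes as lower. Birc5, the inhibitor of apoptosis protein survivin, was at 217 and 217 CPM in the controls and at 144 to 191 CPM in the auxin libraries (-0.47, adjusted p = 0.077 and -0.27, adjusted p = 0.328), and Birc2, another inhibitor of apoptosis, at -0.36 and -0.30. The GC and length correction gave -0.41 and -0.23 for Birc5 and -0.18 and -0.17 for Birc2.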

How the data were processed

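Per the labels, RNA came from mouse ESCs; poly(A) RNA is named as the molecule, but the kit in the protocol depletes ribosomal RNA from total RNA. The deposited values are raw counts per gene: the authors trimmed reads with cutadapt 1.10, aligned them to mm10 with STAR 2.5.3a and counted unique, unambiguous reads with HTSeq 0.6.1p1 in union mode on Ensembl 102. The strand option is not given in the sources used here. The 5 tallies of unassigned reads, 63.5% to 69.4% of all entries, were left out. Symbols, positions, exon lengths and GC content came from GENCODE annotation of GRCm38, the assembly of mm10 (55141 of 55401 identifiers matched), and promoter windows from RefSeq.

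All 8 libraries were fitted together in edgeR 4.0.16 (R 4.3.3, limma 3.58.1): filterByExpr left 17532 genes, library sizes were adjusted by TMM (a trimmed mean of log ratios), and group means were compared by the robust quasi-likelihood test, two-sided, with Benjamini-Hochberg adjustment over all tested genes. Genes under an adjusted p of 0.05 count as called. The SE is the log2 FC divided by the square root of F. CPM are TMM-scaled, log2 CPM has a prior count of 2, and CPM per kb divides by the union of exons. Alternatives were DESeq2 1.42.0 (the tool of the study), size factors by the median of ratios, a filter at a mean of 1 CPM, no filter at all, a fit of the compared groups alone, replicate number as a block, a lowess correction (span 0.3) of each library for GC content and exon length, and leaving out each library. The fit was tested on simulated data. Python 3.11.15 (numpy 2.4.6, pandas 2.3.3, matplotlib 3.10.9) served for summaries and plots.

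The members and lists were chosen with earlier results of these data known. Named were all 10 members; each listed gene called against control or, where a list had none, the 2 with the smallest unadjusted p in either comparison; and the 5 genes outside the set most like its median profile. Mcl1, Trp53, Cdkn1a, Fasl and Edar were named after their values were seen, for their role. Pou5f1 and Nanog of the ESC markers and Mdm4, Atm and Ppm1d of p53 and its controllers were named since all auxin libraries lay on the same side of both controls. For the same reason Apaf1, Tnfrsf10b, Siva1 and Steap3 were named among the further p53 targets of cell death. The remaining lists were not named by this rule, though genes such as Gadd45a, Gdf15, Casp2, Cycs, Diablo and Xiap met it. The same controls serve both comparisons, so these are not independent. No outlier was looked for, since groups had 2 or 3 libraries.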

Additional observations from a re-analysis of the deposited data

How the results depend on the processing

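The median log2 FC of the 10 genes stayed above 0 against control under every alternative run. The GC and length correction moved it by more than the spread between libraries in Zzz3_auxin (0.63) and in both auxin groups (0.70). Leaving out a library gave 0.50 to 0.62 in Zzz3_auxin, 0.51 to 0.68 in Yeats2_auxin, 0.49 to 0.60 in both and -0.07 to 0.0020 between the depletions. The number of the 10 called, 0 by edgeR, was 4, 5 and 5 (Zzz3_auxin, Yeats2_auxin, both) by DESeq2, 6, 7 and 6 with no filter, and 3, 2 and 3 with the GC and length correction. It was 5 in Yeats2_auxin with only the compared groups. Leaving out a library gave 0 to 3, 0 to 2 and 0 to 5, and 0 between the depletions.

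The share of all tested genes called (0.753%, 0.445% and 1.26%, and 0% between the depletions) was 8.17%, 3.15%, 6.98% and 0.00909% by DESeq2 and 4.67%, 1.68%, 4.01% and 0.354% with no filter. With only the compared groups it was 0% and 2.69%, and in Yeats2_auxin the GC and length correction gave 0.753%. Leaving out a library gave 0% to 4.84%, 0% to 1.25%, 0% to 3.87% and 0% to 0.00574%; the highest came without Zzz3_auxin replicate 2 for Zzz3_auxin and without Zzz3_auxin replicate 3 for the rest. The replicate block gave 0.240%, 0.183% and 0.610%, with 0 of the 10 genes called. The labels' numbers were not taken to pair the samples, since not every same-numbered pair correlated above 0.1. Deviations from the group mean correlated at 0.02, 0.05 and -0.07 between Zzz3_auxin and Yeats2_auxin. The values were 0.12 and -0.34 between Control and Zzz3_auxin and 0.14 and 0.31 between Control and Yeats2_auxin. The deviations of the 2 controls are equal and opposite, so the Control values are not separate checks and cannot decide the pairing. The cause of these shifts was not tested.

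Signs changed in values near 0 and in Pmaip1. In Zzz3_auxin, Ei24 was at 0.047 with the replicate block, and Pmaip1 ranged from -0.212 to 0.64 and Ei24 from -0.21 to 0.172 over left-out libraries. In Yeats2_auxin, Zzz3 was at -0.0390 with the block and Bmf at -0.0392 with the GC and length correction. Between the depletions, Bax was at 0.165 with that correction and Eda2r at 0.0042 with no filter, and left-out libraries gave -0.15 to 0.0518 for Bax, -0.11 to 0.0718 for Zmat3, -0.0263 to 0.34 for Ei24, -0.58 to 0.0792 for Fas and -0.10 to 0.0408 for Eda2r. With both groups, Ei24 ranged from -0.0735 to 0.17. Fas, at 6 to 40 reads, was limited by depth.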
